A study of Oryctolagus cuniculus with 8 samples.

Results

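A set of 9 genes of pericytes and vascular smooth muscle cells, together called mural cells, were examined in RNA sequencing of 8 rabbit retinas. The members were taken by these symbols, with no threshold on their levels: PDGFRB, RGS5, CSPG4, NOTCH3, ACTA2, MYH11, DES, TAGLN and CNN1. Of these 9 symbols, 7 had a row among the 25666 genes of the expression table, of which 19293 are protein-coding. TAGLN and CNN1 were not analysed here, since no row carried these symbols.

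Mural cells sit on the outside of small blood vessels and share a basement membrane with the endothelium. Endothelial cells secrete PDGF-B, which holds pericytes on the vessel through the receptor PDGFRB, and they present the ligand JAG1 to the receptor NOTCH3 on the neighbouring mural cell. Pericytes carry CSPG4 (also called NG2) and RGS5, whereas smooth muscle cells of arterioles are rich in the contractile proteins encoded by ACTA2 and MYH11. Loss of pericytes is an early feature of diabetic retinopathy. The rabbit retina is unusual in that its vessels are confined to the medullary rays, the bands of myelinated nerve fibres on either side of the optic disc, and the rest is supplied by the choroid.

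All rabbits were wild-type male Chinchilla rabbits, about 10 months old, fed for 6 months. ND rabbits received standard chow. To this chow, HFD added 10% lard and 0.5% cholesterol, HSD added 40% sucrose, and HFSD combined both, with 35% sucrose beside the lard and cholesterol of HFD. There were 2 retinas per diet, called here ND1 and ND2, HFD1 and HFD2, HSD1 and HSD2, and HFSD1 and HFSD2. Nothing in the sources used here states that both retinas of a diet came from separate rabbits, nor which stretch of the retina was taken, so that P values measure only the spread between these samples.

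Levels are given in FPKM, the fragments of a gene scaled for its length and for the depth of the library, which allows levels of different genes to be set side by side. Between 15223613 (HSD1) and 22293559 (HFSD1) fragments lay on genes. The tissue carried defining genes of the retina, with the cone arrestin ARR3 between 293 and 476 FPKM and the rod arrestin SAG between 2826 and 3820 FPKM. Several libraries stood apart. In HSD2, 10 of the 11 skeletal muscle markers in the table and 7 of 8 fibroblast markers had their highest level. In ND1, all 8 myelin markers in the table had their highest level, with a sum of 714 FPKM against 96.5 in ND2. GFAP of astrocytes was 524 FPKM in ND1 and 1.08 in HSD2. These markers are given again beside the mural cell genes.

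Mural cell transcripts were scarce in all 8 libraries. Over the 8 retinas, PDGFRB had the highest mean level (3.20±0.751 FPKM, mean±s.d.), followed by RGS5 (2.47±3.0), DES (2.06±5.56), NOTCH3 (1.80±0.822) and ACTA2 (1.40±0.702). MYH11 (0.258±0.158 FPKM) and CSPG4 (0.195±0.257) were lowest. The s.d. exceeded the mean for RGS5, CSPG4 and DES, so the order of these genes in the ranking rests on few retinas. In whole libraries these levels came from 2737 fragments for PDGFRB, 2385 for NOTCH3, 693 for DES, 463 for ACTA2, 343 for RGS5, 227 for MYH11 and 208 for CSPG4, summed over the 8 retinas. In bulk retina, fewer mural cells and less RNA per mural cell cannot be told apart.

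**Figure D1:**
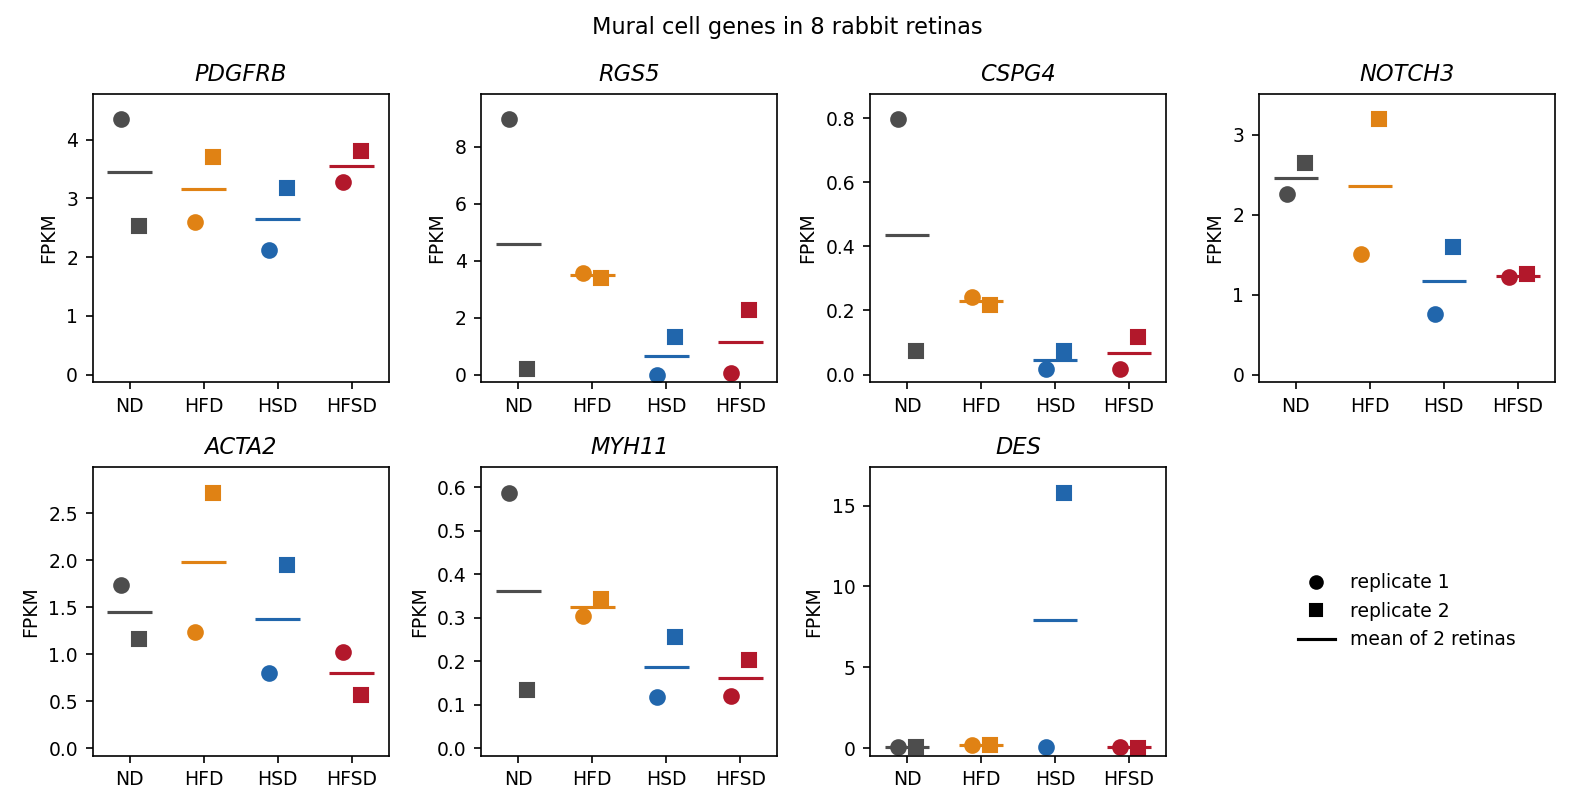
FPKM (y axis, linear, from 0) of the 7 mural cell genes in each retina by diet (x axis). Circles are replicate 1, squares replicate 2 and bars the mean of 2 retinas. Both ND retinas lie far apart for RGS5 (8.97 and 0.184), CSPG4 and MYH11, NOTCH3 is lower in all HSD and HFSD retinas than in both ND retinas, and DES is high in HSD2 alone (15.8).

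PDGFRB, the receptor through which PDGF-B recruits pericytes, had the smallest s.d. relative to its mean FPKM of the 7 genes, whereas on the log2(FPKM+1) scale the low MYH11 spread less. PDGFRB measured 4.35 and 2.53 FPKM in ND1 and ND2, 2.59 and 3.71 in HFD1 and HFD2, 2.11 and 3.18 in HSD1 and HSD2, and 3.28 and 3.81 in HFSD1 and HFSD2. ND1 was the highest and HSD1 the lowest retina, and each sucrose or fat diet overlapped with ND, while both HSD retinas lay below both HFSD retinas. Group means were 3.44±1.28 FPKM for ND, 3.15±0.788 for HFD, 2.65±0.756 for HSD and 3.54±0.372 for HFSD (n=2 each). The ND retinas differed 1.72-fold from each other (95% interval 1.47 to 2.0, exact Clopper-Pearson on 493 and 260 fragments). Such intervals cover counting error only. On the scale of log2(FPKM+1), the difference from ND was −0.080 for HFD (95% interval −0.69 to 0.53), −0.27 for HSD (−0.88 to 0.34) and 0.061 for HFSD (−0.55 to 0.67). None passed in limma (Benjamini-Hochberg adjusted P=0.998, 0.849 and 0.966). Any difference within these intervals remains compatible with the values of 2 retinas per diet.

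RGS5, a brake on G protein signalling and a widely used pericyte marker, varied widely, with a spread within diets second to that of DES. It measured 8.97 FPKM in ND1 (162 fragments) and 0.184 in ND2 (3 fragments), 3.58 and 3.38 in HFD1 and HFD2, and 0 and 1.32 in HSD1 and HSD2. In HFSD1 it measured 0.0475 FPKM (1 fragment) and in HFSD2 2.27. The highest and one of the lowest values thus came from the same diet, and ND spanned nearly the whole range. In HSD1 no fragment was found, which allows up to 0.206 FPKM (3 fragments). ND1 exceeded ND2 48.9-fold (95% interval 16.4 to 239) and HFSD2 exceeded HFSD1 47.7-fold (7.98 to 1939, on 33 fragments and 1). HSD2 (21 fragments) was at least 6.40-fold above HSD1 when HSD1 is set at 3 fragments, and the exact lower 95% limit of the ratio on 21 and 0 fragments was 4.76, while the HFD retinas differed only 1.06-fold (0.731 to 1.54).

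Group means of RGS5 were 4.58±6.21 FPKM for ND, 3.48±0.139 for HFD, 0.659±0.933 for HSD and 1.16±1.57 for HFSD (n=2 each). The log2 differences from ND were 0.38 for HFD, −1.17 for HSD and −0.89 for HFSD, each with a standard error of 0.974, and none passed (limma, adjusted P=0.998, 0.823 and 0.843). For HFD the sign depended on the scale, since the mean FPKM of RGS5 was 0.761 times that of ND while the mean of log2(FPKM+1) was higher. The spread within diets (s.d. 1.30 on the log2 scale) was larger than the spread of the diet means (0.733). This is a description and no test, since means of 2 retinas spread less than single retinas in any case. Which ND retina was taken as the control turned the direction. Without ND1, the difference became 0.36 for HSD and 0.64 for HFSD, and without ND2 it became −1.15 for HFD.

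CSPG4, the NG2 proteoglycan of the pericyte surface, kept the order of RGS5 across all 8 retinas, rank for rank. It measured 0.798 and 0.0721 FPKM in ND1 and ND2, 0.241 and 0.218 in HFD1 and HFD2, 0.0180 and 0.0740 in HSD1 and HSD2, and 0.0187 and 0.117 in HFSD1 and HFSD2. These values rest on 110 fragments in ND1 and on 2 to 34 in each other retina, so that neighbouring ranks such as HSD1 (2 fragments) and HFSD1 (3 fragments) do not differ beyond counting error. ND1 exceeded ND2 11.1-fold (95% interval 5.62 to 24.8). The group means were 0.435±0.513, 0.230±0.0169, 0.0460±0.0396 and 0.0678±0.0694 FPKM for ND, HFD, HSD and HFSD (n=2 each). In mean FPKM, ND was 1.89 times HFD, 9.45 times HSD and 6.42 times HFSD, gaps that the log2(FPKM+1) scale compresses at such low levels. The log2 differences were −0.18, −0.41 and −0.38 for HFD, HSD and HFSD (limma, adjusted P=1, 0.774 and 0.760, from the fit without a filter on low values). Without ND1 they came to −0.036 for HSD and −0.0074 for HFSD, and without ND2 to −0.78 and −0.75.

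The gap between ND1 and ND2 was the widest within-diet gap for RGS5, CSPG4 and MYH11 (3.07, 0.75 and 0.49 on the log2 scale), and it exceeded the range of the diet means (1.56, 0.41 and 0.21). Some genes of other cells had the retina order of RGS5. In each of the 4 diets the same retina that was higher for RGS5 was also higher for CSPG4, and PDGFRB and MYH11 followed in 3 of 4 diets, the exception being HFD. Over all tested genes, 5.99% followed RGS5 in all 4 diets. Among 13 other pericyte genes with values, 5 did so, and among 13 endothelial markers 8 did. Only 5 of these pericyte genes and 7 of these endothelial markers were among the tested genes, so the shares are of unlike sets. In HFD the order of RGS5 itself rests on 66 and 57 fragments, a 1.06-fold gap within counting error (95% interval 0.731 to 1.54). VWF, the von Willebrand factor of endothelium, measured 3.77 and 0.00648 FPKM in ND1 and ND2, 1.36 and 0.893 in the HFD retinas, 0 and 0.479 in the HSD retinas, and 0 and 0.727 in the HFSD retinas. Its order within each diet was that of RGS5. CLDN5, the tight junction protein of the blood-retina barrier, was 28.0 FPKM in ND1 and 1.03 in ND2, 20.3 and 6.76 in HFD1 and HFD2, 1.16 and 0.794 in HSD1 and HSD2, and 0.534 and 6.85 in HFSD1 and HFSD2. It thus went against RGS5 in HSD.

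The 5 tested genes whose levels were most like those of RGS5 over the 8 libraries were SPARCL1 (Pearson r=0.98), CADPS2 (0.98), PMP22 (0.97), VWF (0.97) and MPZL2 (0.97). SPARCL1 is a matrix protein of vessels and astrocytes, and PMP22 is a membrane protein best known from peripheral myelin. Of the mural cell genes themselves, MYH11 (r=0.95) and CSPG4 (0.88) came closest, followed by PDGFRB (0.69), ACTA2 (0.46), NOTCH3 (0.45) and DES (−0.029). All these correlations are over the same 8 libraries on the log2(FPKM+1) scale and are descriptions only, since the points share their libraries and ND1 lies far from the others for RGS5.

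The myelin markers had the retina order of RGS5 in part. All 8 in the table were highest in ND1, and 2 of 8 followed RGS5 in all 4 diets, with the 6 others doing so in 3. Their sum was 714 FPKM in ND1 and 96.5 in ND2, 474 in HFD1 and 345 in HFD2, 61.0 in HSD1 and 45.7 in HSD2, and 62.0 in HFSD1 and 157 in HFSD2, so that in HSD it was lower in the retina with more RGS5. MOBP was listed at 0 in both HSD retinas and in HFSD1. Of the endothelial markers, 8 of 13 were highest in ND1. Counting ties at 0, 8 were lowest in HSD1, 6 in HFSD1 and 3 in ND2. VWF, CDH5, EMCN and ERG were listed at 0 in both HSD1 and HFSD1, EMCN and ERG also in ND2, and PECAM1 in HSD1 alone. The summed level of the endothelial list (129 to 168 FPKM over the 8 retinas) was neither highest in ND1 nor lowest in HSD1. KDR alone took 75.8 to 131 FPKM of this sum, with its lowest level in ND1. Haemoglobin HBB2, a mark of blood, was 81.0 and 7.84 FPKM in ND1 and ND2 and 71.7 and 14.9 in HFD1 and HFD2. It was 0.229 and 42.1 FPKM in HSD1 and HSD2 and 1.15 and 18.6 in HFSD1 and HFSD2, the order of RGS5 in each diet. Of 3 blood markers with values, 2 followed RGS5 in all 4 diets. GFAP was 524 and 12.1 FPKM in ND1 and ND2, 216 and 203 in HFD1 and HFD2, 2.37 and 1.08 in HSD1 and HSD2, and 3.05 and 69.5 in HFSD1 and HFSD2, which is the order of RGS5 in each diet but HSD. Of the 6 astrocyte markers, 1 followed RGS5 in all 4 diets, and their summed level was 415 to 1185 FPKM in ND and 259 to 987 in the other diets. The part of vessel, myelin, astrocyte and blood content in the levels of RGS5, CSPG4 and MYH11 was not tested.

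**Figure D2:**
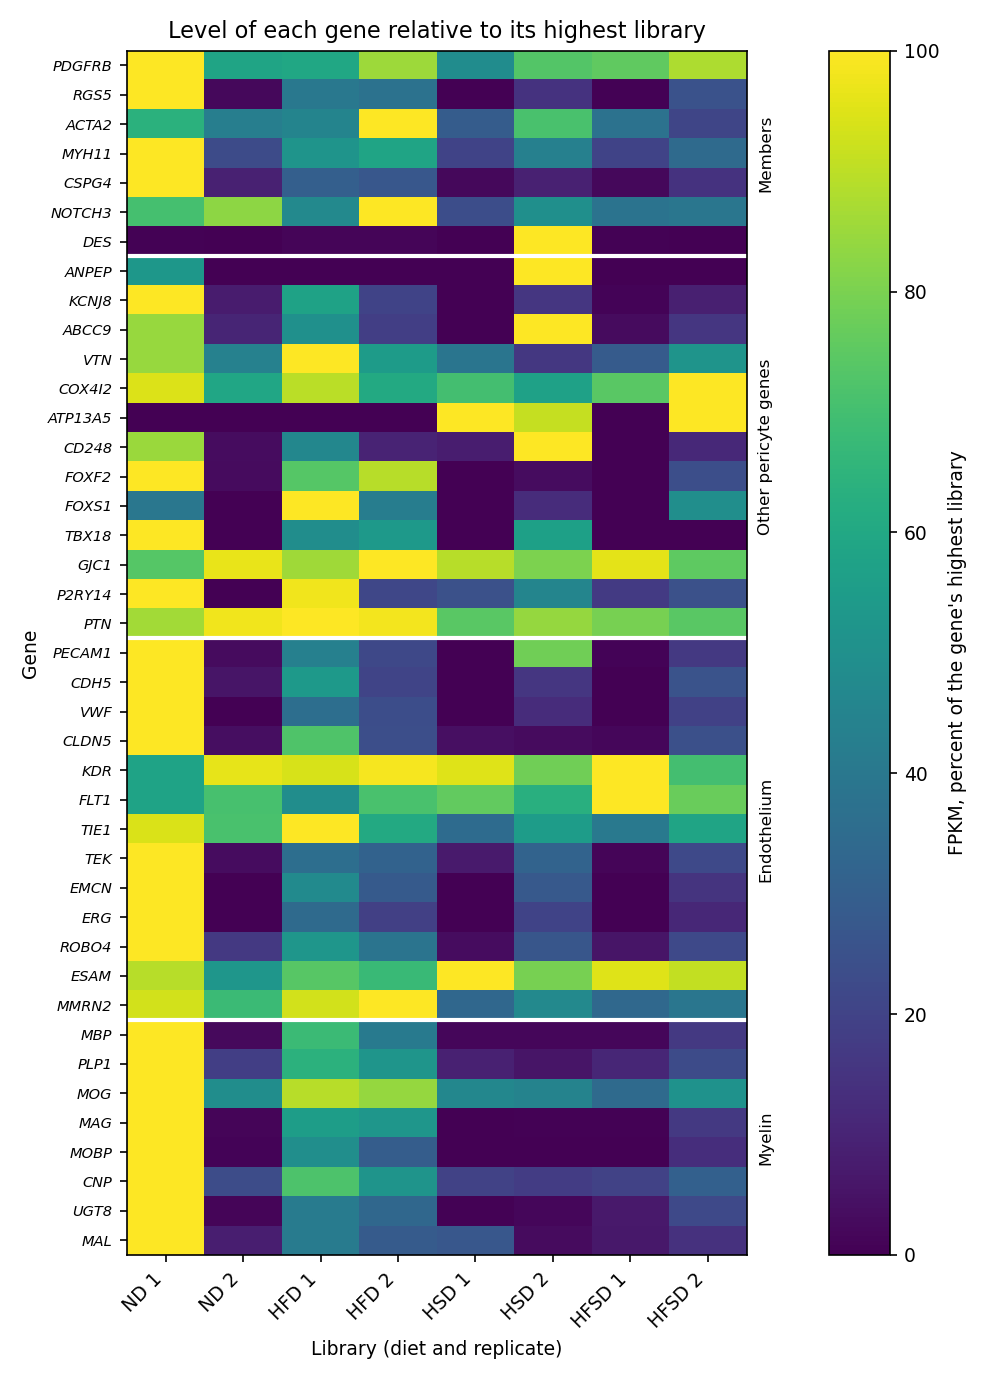
Level of each gene (rows) in each retina (columns) as a percent of the gene's highest retina, for the mural cell genes and for other pericyte, endothelial and myelin genes. ND1 holds the highest level of RGS5, CSPG4, MYH11 and PDGFRB, of 8 of 13 endothelial genes and of 8 of 8 myelin genes, while NOTCH3, ACTA2 and DES peak in other retinas.

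NOTCH3, the receptor that maintains arteriolar smooth muscle and pericytes, was the one gene of the 7 in which the diet means spread as widely as the retinas within a diet. It measured 2.25 and 2.65 FPKM in ND1 and ND2, 1.51 and 3.19 in HFD1 and HFD2, 0.751 and 1.59 in HSD1 and HSD2, and 1.22 and 1.26 in HFSD1 and HFSD2. All 4 retinas of the sucrose diets lay below both ND retinas, but HFD1 lay slightly below HSD2. Group means were 2.45±0.279 FPKM for ND, 2.35±1.19 for HFD, 1.17±0.595 for HSD and 1.24±0.0313 for HFSD (n=2 each). In mean FPKM, ND was 2.09 times HSD and 1.98 times HFSD. The spread of the diet means (s.d. 0.358 on the log2 scale) was close to that within diets (0.335). Means of 2 retinas spread less than single retinas even without a difference between diets, so setting these s.d. side by side is no test.

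The log2 difference of NOTCH3 from ND was −0.087 for HFD, −0.69 for HSD and −0.62 for HFSD, each with a standard error of 0.296. In limma the unadjusted P was 0.0498 for HSD and 0.0714 for HFSD, and after Benjamini-Hochberg adjustment over 12204 genes neither passed (adjusted P=0.691 and 0.651, with a range over the alternatives of 0.512 to 0.951 and 0.487 to 1). Both comparisons share the ND retinas. Pooling the sucrose diets against ND and HFD gave −0.61 (95% interval −1.10 to −0.13, unadjusted P=0.0205, adjusted P=0.202). In HSD without HSD1 the difference was −0.41, and without HSD2 it was −0.98. NOTCH3 did not follow the retina-to-retina order of RGS5. Beside it, the summed pigment epithelium markers were 462 to 541 FPKM in ND, 229 to 304 in HFD, 144 to 163 in HSD and 113 to 160 in HFSD, so that they were lower in HFD than in ND as well. GLUL, the glutamine synthetase of Müller glia, was 1489 and 2127 FPKM in ND1 and ND2, 1685 and 1551 in HFD1 and HFD2, 754 and 883 in HSD1 and HSD2, and 722 and 890 in HFSD1 and HFSD2, and was thus lower in all 4 sucrose retinas than in the 4 others. The part of these cells in the level of NOTCH3 was not tested.

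The partners of NOTCH3 were measured as well. JAG1, its endothelial ligand, was 18.6 and 22.8 FPKM in ND, 17.6 and 15.8 in the HFD retinas, 17.1 and 16.6 in the HSD retinas and 19.0 and 18.4 in HFSD, and DLL4, a ligand of endothelial tip cells, was at most 0.578 FPKM. Of 6 Notch target genes listed, HEY1, HEYL and HES1 had a row. HEYL, a target of NOTCH3 in smooth muscle, measured 1.87 and 0.585 FPKM in ND1 and ND2, 1.02 and 0.959 in the HFD retinas, 0.297 and 0.414 in the HSD retinas and 0.541 and 0.406 in HFSD. Its 4 retinas of the sucrose diets lay below both ND retinas, as for NOTCH3, with log2 differences of −0.65 for HSD and −0.53 for HFSD (limma, adjusted P=0.731 and 0.685). HEY1 differed from ND by −0.32 with HSD, −0.077 with HFSD and 0.19 with HFD on the log2 scale. HES1, which is active in Müller glia, reached 115 FPKM in HFD2 against 18.2 to 38.4 in the others. After adjustment no Notch target passed in any comparison. HEYL was past an unadjusted P of 0.05 when the sucrose diets were pooled (limma, log2 difference −0.54, adjusted P=0.241), a comparison in which 9.16% of all tested genes were lower at that threshold. It reached the 1 FPKM of the filter only in ND1 and HFD1, so it was tested only through its level without sucrose. Its P is therefore no support for a lower level with sucrose.

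ACTA2, the smooth muscle actin, measured 1.74 and 1.16 FPKM in ND1 and ND2, 1.23 and 2.72 in HFD1 and HFD2, 0.795 and 1.95 in HSD1 and HSD2, and 1.02 and 0.567 in HFSD1 and HFSD2. Both HFSD retinas lay below both ND retinas, whereas HFD and HSD overlapped with ND. Group means were 1.45±0.407, 1.98±1.05, 1.37±0.814 and 0.794±0.321 FPKM for ND, HFD, HSD and HFSD (n=2 each), and the log2 difference for HFSD was −0.45 (standard error 0.344, limma, adjusted P=0.780). ACTA2 encodes a protein nearly identical to those of ACTA1, ACTC1 and ACTG2, and reads that mapped to several places had been discarded. How many reads of ACTA2 this removed was not measured, so its level is uncertain. In HSD2, where ACTA1 of skeletal muscle was 105 FPKM and ACTC1 30.6, ACTA2 was 1.95 FPKM. The tested genes most like ACTA2 over the 8 libraries were SERHL2 (r=0.97), MNDA (0.97), DEDD (0.94), RRP9 (0.94) and ASGR1 (0.93), none of which is a known smooth muscle gene.

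MYH11, the myosin heavy chain of smooth muscle, measured 0.588 and 0.134 FPKM in ND1 and ND2, 0.305 and 0.343 in HFD1 and HFD2, 0.118 and 0.255 in HSD1 and HSD2, and 0.119 and 0.204 in HFSD1 and HFSD2. ND1 stood 4.40-fold above ND2 (95% interval 2.45 to 8.46), and ND2 lay within the range of the sucrose diets. Log2 differences from ND were −0.019 for HFD, −0.18 for HSD and −0.21 for HFSD, each with a standard error of 0.157 (limma without a filter, adjusted P=1, 0.825 and 0.820). With the non-muscle myosins MYH9 at 8.57 to 11.5 FPKM and MYH10 at 32.7 to 43.4, MYH11 was the lowest of these 3 myosin genes in every retina.

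DES encodes desmin, the intermediate filament of muscle cells and of some pericytes. It measured 0.0631 and 0.0464 FPKM in ND1 and ND2, 0.185 and 0.203 in HFD1 and HFD2, 0.0522 and 15.8 in HSD1 and HSD2, and 0.0902 and 0 in HFSD1 and HFSD2. Only HSD2 was above 1 FPKM, with 663 fragments against at most 9 in each other library, and it exceeded HSD1 303-fold (95% interval 83.5 to 2507). The log2 difference between HSD and ND was 2.0 (standard error 1.13, limma without a filter, adjusted P=0.774). Without HSD2 it was −0.0035. With HSD2 as the lone HSD retina, assumed to vary like the other diets, it was 3.99 (adjusted P=0.000319).

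Skeletal muscle genes were high in the same library. In HSD2, MYL1 reached 141 FPKM against at most 0.177 elsewhere, ACTA1 105 against at most 0.707, and TNNC2 77.8 against 0 in the 7 others. Of the 11 muscle markers in the table, PVALB alone was not highest in HSD2, and the summed list was 590 FPKM there against 56.9 to 100 in the other 7 retinas. The genes most like DES over the 8 libraries were TCAP, TPM2, ATP2A1 (r=0.99 each), MYLPF and MYOM1 (0.98 each). All but TPM2 are sarcomere or calcium-handling genes of striated muscle. TPM2, a tropomyosin, was also on the list of the smooth muscle contractile programme, and measured 15.5 to 20.0 FPKM in the other 7 retinas. MYH11 in HSD2 was 0.255 FPKM, within the range of the other libraries. Fibroblast markers were highest in HSD2 for 7 of 8, with DCN at 16.2 FPKM against at most 1.80 elsewhere. The part of muscle and fibroblast content in the DES level was not tested.

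**Figure D3:**
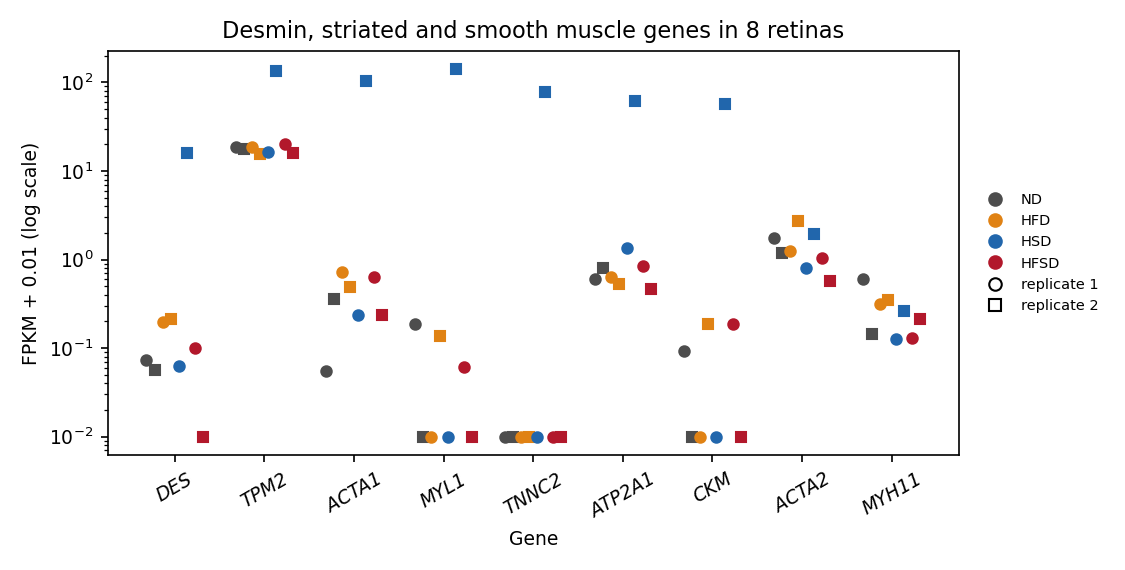
FPKM+0.01 (y axis, log scale) of desmin, striated muscle genes and smooth muscle genes (x axis) in each retina, with colours for diets, circles for replicate 1 and squares for replicate 2. In HSD2 (blue square) DES (15.8 FPKM) and 6 striated muscle or tropomyosin genes lie above all other retinas, whereas ACTA2 (1.95) and MYH11 (0.255) lie among them; values at the bottom are 0.

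Taking the 7 genes in each diet, no member passed in HFD against ND, where 0.00819% of the 12204 tested genes did, in HSD (0.0574%) or in HFSD (0.0164%), by limma at an adjusted P of 0.05. At an unadjusted P of 0.05, no member differed in HFD (4.31% of all tested genes, either direction) or in HFSD (8.07%), and NOTCH3 was lower in HSD (4.51% of genes lower, 7.2% in either direction). PDGFRB, RGS5, ACTA2 and NOTCH3 were among the 12204 tested, while MYH11, CSPG4 and DES did not reach 1 FPKM in 2 libraries and were fitted without that filter. With HFD the median log2 difference of the 7 was −0.019 (0.0063 over all tested genes), and 4 of 7 lay below ND (48.8% of all tested genes), or 5 of 7 by mean FPKM, where RGS5 joined them. With HSD the median was −0.27 (−0.0018), with 6 of 7 below ND (50.5%). With HFSD it was −0.38 (−0.0040), again with 6 of 7 below ND (50.8%). All 3 comparisons share the ND retinas.

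These medians depended on the ND retina. Without ND1, the median of the 7 was 0.22 with HFD, 0.063 with HSD and −0.0032 with HFSD, and without ND2 it was −0.26, −0.57 and −0.54. With a pseudocount of 0.1, it was 0.079, −0.53 and −0.82. Non-overlapping pairs of retinas were found for 1 of 7 members in HFD against ND (DES, higher, 12.5% of all tested genes), for 1 in HSD (NOTCH3, lower, 19.7%) and for 2 in HFSD (ACTA2 and NOTCH3, lower, 20.6%). These shares are near the background.

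By the fold rule of the study, in which (mean FPKM+1) of a diet over that of ND must lie below 0.65 or above 1.54, no member was past the limits in HFD (1.76% of all protein-coding genes). In HSD, RGS5 (0.298) and NOTCH3 (0.629) were below (2.42% of genes) and DES (8.46) above (1.53%). In HFSD, RGS5 (0.387) and NOTCH3 (0.648) were below (2.4%). These calls changed with single retinas. Without ND1, RGS5 was 1.40 in HSD, between the limits, and above the upper limit in HFSD (1.82) and HFD (3.79). Without ND2, RGS5 was below the lower limit in HFD (0.449), and CSPG4 came to lie below it in HSD (0.582) and HFSD (0.594). ACTA2 did so in HFSD without HFSD1 (0.640). NOTCH3 came to lie between the limits without ND2 in HSD (0.667) and HFSD (0.687), without HSD1 in HSD (0.751) and without HFSD1 in HFSD (0.655), and DES did so without HSD2 (0.998). With a pseudocount of 0.1 in place of 1, CSPG4 was lower (0.616) and DES higher (1.90) in HFD (7.97% of genes past the limits), 4 members were lower and 1 higher in HSD (12%), and 5 were lower in HFSD (11.1%).

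**Figure D4:**
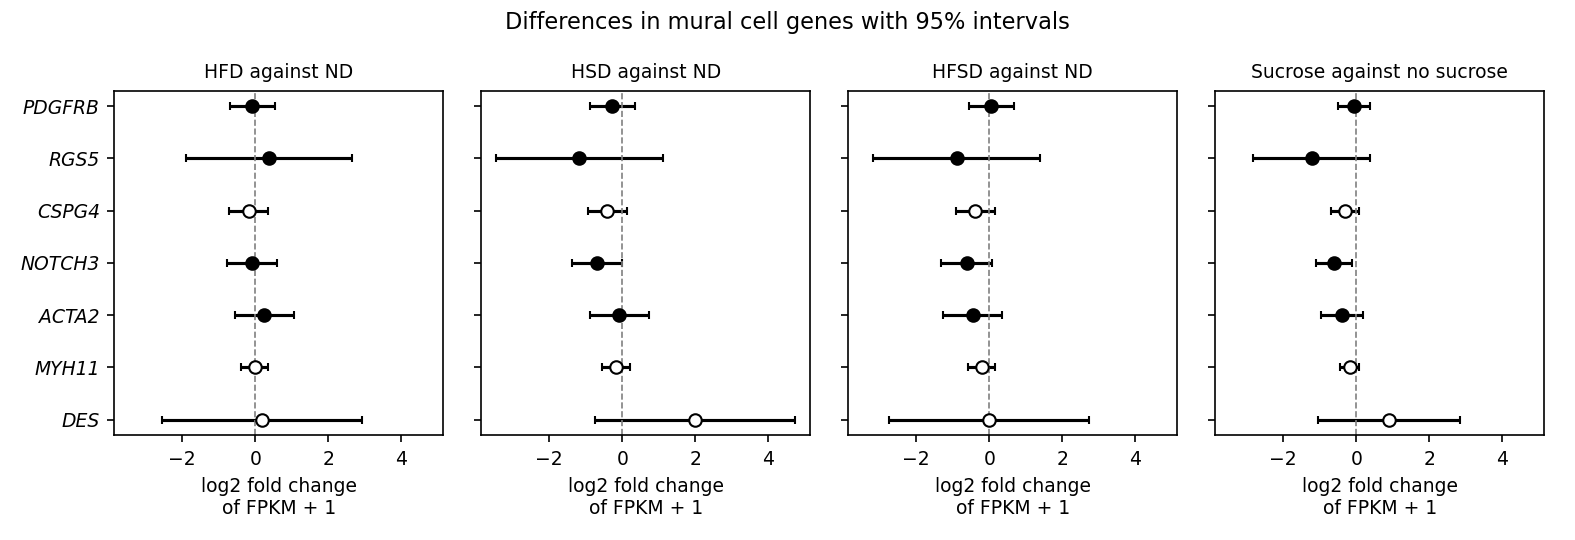
Differences in log2(FPKM+1) with 95% intervals from limma (x axis) for the 7 mural cell genes (y axis) in 4 comparisons. Filled points passed the filter on low values and open points did not. The intervals of RGS5 and DES are widest, and all but those of NOTCH3 in HSD (−0.69) and in the pooled sucrose comparison (−0.61) include 0, before any adjustment.

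When both sucrose diets were set against ND and HFD, 6 of 7 genes had lower values (51.3% of all tested genes), with a median log2 difference of −0.31 beside −0.0073 over all genes. For the 4 tested members alone the median was −0.50, with 4 of 4 lower. RGS5 was at −1.23 (95% interval −2.84 to 0.39), ACTA2 at −0.39, CSPG4 at −0.31 and MYH11 at −0.18, while PDGFRB was at −0.064 (−0.50 to 0.37). None passed after adjustment (0.344% of genes did), and NOTCH3 alone was past an unadjusted P of 0.05 (9.16% of genes lower, 18.3% in either direction). In no member did the 4 sucrose retinas and the 4 others separate (12.9% of genes). The median of the 7 remained below 0 whichever library was left out (−0.47 to −0.12), but sizes depended on single libraries. Without ND1, RGS5 was at −0.46, CSPG4 at −0.12 and MYH11 at −0.063, and without ND2 they were at −1.99, −0.49 and −0.31. ACTA2 ranged from −0.57 without HFD1 to −0.20 without HFD2. Beside these values, the myelin sum was 45.7 to 157 FPKM in the sucrose retinas and 96.5 to 714 in the others, and GLUL and the pigment epithelium sum were lower in all 4 sucrose retinas than in the 4 others. Their part in the result was not tested.

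With fat, the median over the 7 genes was nearer to 0 than with sucrose, a difference that was not tested, whereas PDGFRB (0.12) and DES (−0.92) were farther from 0 than with sucrose (−0.064 and 0.90). Between the fat diets and the diets without added fat, the median was −0.025 with 5 of 7 values lower (47.4% of genes), no member separated (1.34%), and none passed at an adjusted (0.00819%) or unadjusted (3.2%) P of 0.05. Leaving out one library moved the median of the 7 between −0.15 and 0.12. For the 4 tested members alone the median was 0.058, with 2 of 4 lower. The interaction of fat and sucrose had a median of −0.010 over the 7, with 4 of 7 values below 0 (48.1%), and likewise no member at either threshold (0.00819% adjusted, 3.74% unadjusted). The interaction median of the 7 ranged from −0.25 to 0.24 when single libraries were left out. It was 0.027 for the 4 tested members alone, with 2 of 4 below 0.

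A comparison added after the values were seen set HFSD against HFD, diets that differ in their sucrose. Both HFSD retinas lay below both HFD retinas for 6 of the 7 genes (24.7% of all tested genes), PDGFRB being the exception with 3.28 and 3.81 FPKM against 2.59 and 3.71. MYH11, CSPG4 and DES were not among the tested genes, so these shares are of unlike sets. DES separated on only 5 and 0 fragments in HFSD against 9 and 9 in HFD. RGS5 varied together with MYH11 (r=0.95) and CSPG4 (r=0.88), so these genes are not independent of each other. RGS5 had 0.0475 and 2.27 FPKM against 3.58 and 3.38, and MYH11 0.119 and 0.204 against 0.305 and 0.343. The log2 differences were −1.28 for RGS5, −0.70 for ACTA2, −0.54 for NOTCH3, −0.21 for CSPG4, −0.19 for both MYH11 and DES and 0.14 for PDGFRB. RGS5 was at −0.46 without HFSD1 and −2.10 without HFSD2, ACTA2 at −1.06 without HFD1 and −0.33 without HFD2, and NOTCH3 at −0.91 without HFD1 and −0.17 without HFD2. No member passed after adjustment (0.00819% of genes did) or at an unadjusted P of 0.05 (15.1%), and 6 of 7 values below 0 stood beside 51% of all tested genes. For the 4 tested members alone, 3 of 4 lay below 0, with a median of −0.62. The lowest adjusted P was 0.381, for ACTA2 (limma). The myelin sum was 345 to 474 FPKM in HFD and 62.0 to 157 in HFSD. GLUL was 1685 and 1551 FPKM in HFD1 and HFD2 and 722 and 890 in HFSD1 and HFSD2. For pigment epithelium the sum was 229 to 304 FPKM in HFD and 113 to 160 in HFSD. The part of these cells in the differences between HFSD and HFD was not tested.

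Of 19 other pericyte genes listed, 14 had a row and 5 were tested (KCNJ8, VTN, COX4I2, GJC1 and PTN), the other 9 lying below the filter on low values. COX4I2, a subunit of cytochrome c oxidase, was well above the members at 16.2 to 28.4 FPKM. Of the 5 tested, none passed, adjusted or not, in the comparisons of each diet with ND. In the pooled sucrose comparison, VTN (log2 difference −0.65, adjusted P=0.227) and PTN (−0.29, adjusted P=0.165) were lower at an unadjusted P of 0.05 in limma, beside 9.16% of all tested genes, and neither passed after adjustment. NDUFA4L2 was listed at 0 in every library. KCNJ8, the pore of the pericyte ATP-sensitive potassium channel, followed RGS5 with 2.09 and 0.163 FPKM in ND1 and ND2, 1.20 and 0.421 in the HFD retinas, 0 and 0.334 in the HSD retinas and 0.0211 and 0.183 in HFSD. Its channel partner ABCC9 was 0.555 FPKM in ND1 and 0.0672 in ND2 but highest in HSD2 at 0.655. PTN, a growth factor also made by other retinal cells, was 111 and 126 FPKM in ND and lowest, at 96.1 to 108, in the sucrose diets.

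Among the signals between endothelium and mural cells, 18 of 20 listed genes had a row and 11 were tested. No gene passed after adjustment, and TGFBR1, a receptor of TGF-β, was the 1 of 11 past an unadjusted P of 0.05 in HFSD (log2 difference 0.28, adjusted P=0.616, limma), where 3.7% of all tested genes were higher at that threshold. It measured 8.43 and 8.50 FPKM in ND and 10.1 and 11 in HFSD. In the pooled sucrose comparison, TGFBR1 was higher (log2 difference 0.32, adjusted P=0.147) and GJA4, a connexin of arterial endothelium, lower (−1.01, adjusted P=0.194) at an unadjusted P of 0.05 in limma, beside 9.17% of all tested genes higher and 9.16% lower. GJA4 reached 1 FPKM only in ND1 (2.45) and HFD1 (2.15), so it passed the filter only through diets without sucrose. Its P is therefore no support for a lower level with sucrose. PDGFB, the ligand of PDGFRB, measured 0.883 and 0.238 FPKM in ND1 and ND2, 0.553 and 0.473 in the HFD retinas, 0.178 and 0.303 in the HSD retinas and 0.238 and 0.497 in HFSD. ND1 was the highest retina for PDGFB, as for PDGFRB and RGS5. Of the 18 genes, 10 were highest in ND1. ANGPT2, which loosens pericytes from vessels, was 7.29 and 4.10 FPKM in ND and 4.56 to 6.74 in the other diets, with no separation from ND.

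Of 25 genes of the smooth muscle contractile programme, 22 had a row and 16 were tested. At an unadjusted P of 0.05, 1 of the 16 was lower in HFD (2.51% of all tested genes). In HSD, 1 was higher (2.7%) and 2 were lower (4.51%), in HFSD 1 was higher (3.7%) and 2 were lower (4.37%), and none passed after adjustment. In the pooled sucrose comparison, 1 was higher (9.17%) and 5 were lower (9.16%), and again none passed after adjustment. MYL9, the regulatory myosin light chain of smooth muscle, measured 6.54 and 5.61 FPKM in ND, 10.6 and 4.55 in the HFD retinas, 2.42 and 4.57 in the HSD retinas and 1.13 and 1.38 in HFSD. Both HFSD retinas were the lowest of the 8, with a log2 difference from ND of −1.65 (standard error 0.365, unadjusted P=0.00239, adjusted P=0.304, limma). MYLK, the kinase that acts on this light chain, went the other way, with 3.66 and 3.81 FPKM in ND, 5.37 and 5.89 in HSD and 5.32 and 4.81 in HFSD (log2 differences 0.49 and 0.36, adjusted P=0.468 and 0.592), and 2.71 and 2.56 in HFD (−0.38, adjusted P=0.998). SRF, the transcription factor that drives contractile genes, was at −0.31 in HSD (limma, adjusted P=0.624). MYOCD, the smooth muscle coactivator of SRF, was listed at 0 in 7 retinas and at 0.0660 FPKM in HFD2.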

How the data were processed

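Total RNA of dissected retinas was extracted with TRIzol and sequenced from TruSeq libraries (Illumina HiSeq). After trimming of 5′ ends, the authors aligned reads with TopHat2 (up to 2 mismatches), dropped multi-mapping reads and calculated FPKM per gene. FPKM is the unit of the deposited table; genome build and annotation are not given in the sources used here, so no coordinates are given, and 0 value columns were left without a sample.

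FPKM fell on steps of whole fragments (100% of values above 0 within 0.02 of a whole number), which gave the fragments behind each value; voom on these was an alternative. log2(FPKM+1) was fitted with limma 3.58.1 in R 4.3.3, with a mean-variance trend and 1 model of 8 libraries. Testing covered 12204 protein-coding genes that reached 1 FPKM in 2 or more libraries, with Benjamini-Hochberg adjustment and a threshold of 0.05; members below the filter came from a fit without it. Fold changes on this scale understate those of low genes. The fitting was tested on simulated data. Alternatives were a pseudocount of 0.1, no filter, median-ratio scaling, fewer groups, the replicate number as a block and each library left out.

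The members, gene lists and comparisons were chosen with earlier results of these data known, although the rule for members uses symbols only. All members are named. From the lists, genes past an unadjusted P of 0.05 in a diet were named, at most 4 per list, with the 5 genes most like RGS5, ACTA2 and DES; partners of members and marker genes were named after their values were seen. Some genes that met these rules are not reported here.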

Additional observations from a re-analysis of the deposited data

How the results depend on the processing

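Of 665 fits of single members under the alternatives, 4 reached an adjusted P below 0.05 (limma), all of DES without HSD1, where HSD2 stood alone (lowest adjusted P=0.000319). Median-ratio factors lay between −0.00406 and 0.0191 on the log2 scale, and median-ratio scaling changed no member's direction. With 2 retinas per diet, and levels near 1 FPKM, any difference within the intervals given remains compatible with the data.

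The number of genes called moved by over 1.5 times as follows. With the libraries of only the groups compared, it was 2 in HFD, 3 in HSD, 0 in HFSD and 16 in HFSD against HFD. Without a filter it was 3 in HSD, 8 for sucrose, 0 for fat and 0 for the interaction. With voom it was 1 in HSD, 23 for sucrose and 0 for the interaction, which also had 0 with a pseudocount of 0.1 and with median-ratio scaling. The comparison of HFSD with HFD and its alternatives were chosen after seeing the data. A pseudocount of 0.1 put 1537, 2316 and 2149 genes past the fold rule in HFD, HSD and HFSD, and the member median at 0.079 in HFD (voom 0.16), −0.53 in HSD (voom −0.70), −0.82 in HFSD (voom −0.92), −0.67 for sucrose (voom −0.89), −0.19 for the interaction (voom −0.38) and −1.04 in HFSD against HFD (voom −1.17).

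With the replicate number as a block, 4 genes were called in HFSD, 25 for sucrose, 3 in HFSD against HFD and 0 for the interaction. Same-numbered retinas did not deviate together (r from −0.165 to 0.0813 over the 6 pairs of diets), so the numbers do not pair the samples.

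Leaving out one library, the calls ranged from 1 to 2 in HFD, 3 to 12 in HSD, 2 to 11 in HFSD, 4 to 82 for sucrose, 0 to 3 for fat, 0 to 6 for the interaction and 1 to 7 in HFSD against HFD, and the fold rule from 629 to 779 in HFD and 832 to 1205 in HFSD. Directions turned for single members, with these ranges of the log2 difference. In HFD, PDGFRB −0.38 to 0.22, RGS5 −1.15 to 1.92, ACTA2 −0.12 to 0.61, MYH11 −0.26 to 0.22, CSPG4 −0.55 to 0.20 and NOTCH3 −0.46 to 0.28. In HSD, PDGFRB −0.57 to 0.030, RGS5 −2.71 to 0.36, ACTA2 −0.44 to 0.28, MYH11 −0.42 to 0.063 and DES −0.0035 to 3.99. In HFSD, PDGFRB −0.24 to 0.36, RGS5 −2.43 to 0.64, MYH11 −0.45 to 0.034 and DES −0.077 to 0.048. For sucrose, PDGFRB −0.21 to 0.086 and DES −0.099 to 1.90, and in HFSD against HFD, PDGFRB −0.054 to 0.34. For fat, PDGFRB −0.025 to 0.27, RGS5 −0.44 to 1.1, ACTA2 −0.25 to 0.12, MYH11 −0.15 to 0.097, CSPG4 −0.26 to 0.11, NOTCH3 −0.19 to 0.18 and DES −1.91 to 0.084. For the interaction, RGS5 −1.64 to 1.43, MYH11 −0.25 to 0.23, CSPG4 −0.17 to 0.58 and NOTCH3 −0.21 to 0.53.

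Other settings turned MYH11 in HFD to 0.079 (pseudocount of 0.1) and 0.16 (voom), CSPG4 for fat to 0.045 (voom) and NOTCH3 for fat to 0.0063 (pseudocount of 0.1). The cause was not tested.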
